A study of Rattus norvegicus with 4 samples.

Results

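Genes that restrain signaling by ERK and related MAP kinases were examined in Schwann cells (SCs), which form the myelin of peripheral nerve. They were taken by symbol, 10 genes out of the 17949 genes in the count table, namely the dual-specificity phosphatases Dusp1, Dusp4, Dusp5, Dusp6 and Dusp10, the Sprouty genes Spry1, Spry2 and Spry4, and the Sprouty-related genes Spred1 and Spred2. The SCs were primary rat cells from sciatic nerve, cultured in 10% fetal bovine serum with 4 µM forskolin, which raises cyclic AMP, and 5 ng/ml heregulin-β1, a ligand of the ErbB3 receptor, in both groups. One group was infected for 48 h, with polybrene, with a lentivirus that overexpresses the Egr2 promoter antisense RNA (Lenti-AS, n = 2), and the control group with a virus carrying GFP (Lenti-GFP, n = 2), called the controls where single values are given. The Egr2-AS vector carries a DsRed reporter, so the antisense RNA and the reporter cannot be told apart in this comparison. The Egr2-AS itself was not analysed here, so the labels were not checked against its level. The sources used here give neither the strain and age of the rats nor the promoter that drives the Egr2-AS, and call the replicates biological without saying whether they came from separate animals, cultures or days, so the p-values measure only the spread between these samples.

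The ERK cascade carries signals from receptor tyrosine kinases through Ras, Raf and MEK to the kinases ERK1 and ERK2, and it is held in check by genes that the cascade itself induces. MAP kinase phosphatases of the Dusp family remove phosphate from the threonine and tyrosine of activated MAP kinases. Sprouty and Spred proteins act further upstream, where they limit the activation of Ras and Raf by growth factor receptors. In SCs this cascade is driven by neuregulin through ErbB2 and ErbB3, and sustained ERK activity is known to push SCs out of the myelinating state.

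The counts summed to between 74024323 and 96185890 per sample, and all 10 genes were among the 12446 tested, with 153 to 71086 counts per gene and sample. Levels are given as CPM, each gene's counts relative to the TMM-scaled library size. A gene was called where edgeR's quasi-likelihood test gave an adjusted p below 0.05 and the fitted change reached 1.3-fold. The smallest two-sided p that exact permutation of 2 against 2 samples allows is 0.333, so no such p is given for single genes. Of the SC markers, Sox10, S100b, Ngfr, Erbb3, Cdh19 and Ncam1 had at least 61.3 CPM in every sample, while Gap43 lay between 0.0228 and 0.264 CPM. These 7 SC markers summed to 4057 and 4066 CPM in the controls and 4762 and 4497 CPM under Lenti-AS, with 0 called by edgeR and by DESeq2 and 4 higher and 2 lower at an unadjusted p under 0.05, against 12.5% and 9.37% of all genes tested. Lenti-AS 1 stood apart for Sox10 (163 CPM against 61.3 to 77.1 CPM in the others) and Col1a1 (2131 against 290 to 841 CPM), genes singled out after their values had been seen. Lenti-AS 2 stood apart for erythroid markers, with a summed level of 2808 CPM over the 6 markers in the table against 4.02 to 7.31 CPM in the others. That sum came from the 4 globin genes, while Alas2 and Slc4a1 stayed at 0.851 and 0.133 CPM in Lenti-AS 2. The 8 fibroblast markers summed to 1111 and 966 CPM in controls 1 and 2 against 2365 and 578 CPM in Lenti-AS 1 and 2, from Col1a1 and from Pdgfrb (225 to 279 CPM), with Thy1, Dcn, Lum and Fap at 0.0633 CPM or less in every sample. The 8 macrophage markers summed to 3.37 to 4.42 CPM, with Ptprc, Aif1 and C1qa at 0.120 CPM or less and Cd68 higher in both Lenti-AS samples (at most 1.28 CPM in the controls against at least 1.80 CPM). The 5 endothelial markers summed to 15.6 to 21.0 CPM, mostly Tek, which was lower in both Lenti-AS samples (19.8 and 20.2 against 15.3 and 14.7 CPM) and was called by DESeq2 but not by edgeR. The part of these differences in the results was not tested, and in bulk samples fewer cells of a type and less RNA per cell cannot be told apart.

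Of the 10 genes, Dusp10 alone was called, and it was 1.42-fold higher under Lenti-AS than in the controls. Of all genes tested 1.98% were called, 1.31% higher and 0.667% lower, and 2.18% passed the adjusted p at any fold, where Dusp10 was again the single member. No member was called lower by edgeR's quasi-likelihood test, although 3 members were lower at an unadjusted p under 0.05 (Dusp4, Dusp6 and Spry1), as were 9.37% of all genes tested. Dusp10 and Spry2 were higher at an unadjusted p under 0.05, as were 12.5% of all genes, so that 5 of the 10 members passed it against 21.8% of all genes. DESeq2 called Dusp10 higher and 1 member, Spry1, lower, and among the 10033 genes to which it gave an adjusted p it called 6.25%, 4.86% higher and 1.39% lower. The likelihood ratio test also called Spry1 lower, and limma-voom called no member lower. The CPM of the groups did not overlap for 5 of the 10 genes, 2 of them higher and 3 lower in Lenti-AS, against 54.9% of all genes tested, of which 27.7% were higher and 27.2% lower. The fitted change was above 0 for 7 members and below 0 for 3, with a median log2 fold change of 0.18 over the 10 and of 0.01 over all genes tested. Without Lenti-AS 1 the median of the 10 genes was 0.02.

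**Figure D1:**
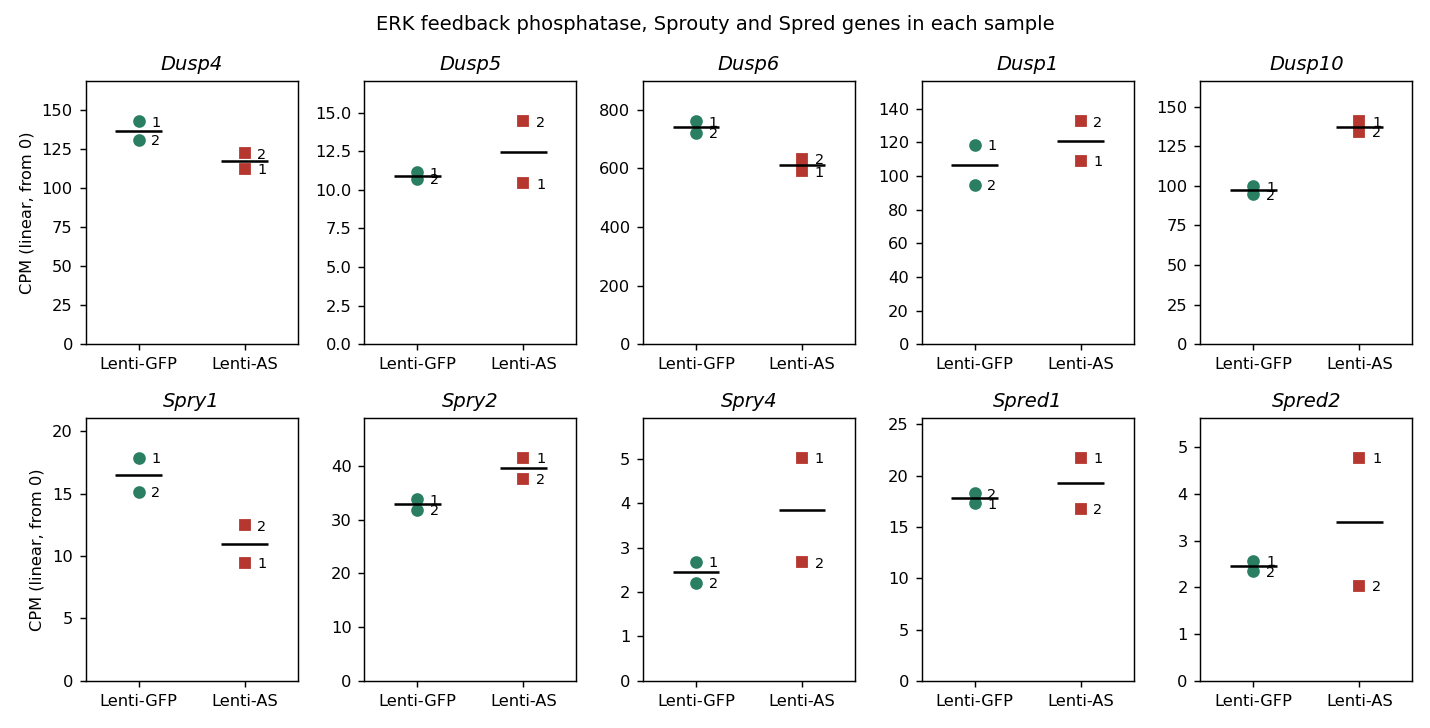
CPM (linear axis from 0, own scale per gene) of each of the 10 genes in Lenti-GFP (circles) and Lenti-AS (squares), with replicate numbers beside the points and a line at each group mean. Dusp4, Dusp6 and Spry1 lie lower and Dusp10 and Spry2 higher in both Lenti-AS samples, and the points of the other 5 genes overlap between groups.

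The bases just before the annotated start of 5 of these genes are shown, picked after their levels had been seen. Dusp10 was called higher, Dusp6 and Spry1 were lower without a call, and Dusp1 and Dusp5 overlapped between the groups. Spry2, higher in both Lenti-AS samples without a call, is not printed, and its matches are given below. Promoter sequences from RefSeq on the GRCr8 assembly, a later build than the rn6 assembly of the counts, were found for 9 of the 10 members. Dusp4 had none and was not searched. Each is printed from the 5′ end as the 250 bases before the start, and capitals mark matches on either strand to 5 motifs, namely AP-1 (TGANTCA), the cyclic AMP response element CRE (TGACGTCA), ETS (CCGGAA), EGR (GCGNGGGCG) and the CArG box of serum response factor.
Dusp10, chr13:98145643-98145892, plus strand: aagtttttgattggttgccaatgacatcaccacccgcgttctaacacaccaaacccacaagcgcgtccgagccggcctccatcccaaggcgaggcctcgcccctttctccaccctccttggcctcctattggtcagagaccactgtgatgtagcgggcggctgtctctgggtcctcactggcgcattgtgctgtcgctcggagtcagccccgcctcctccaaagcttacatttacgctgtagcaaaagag
Dusp6, chr7:35979354-35979603, plus strand: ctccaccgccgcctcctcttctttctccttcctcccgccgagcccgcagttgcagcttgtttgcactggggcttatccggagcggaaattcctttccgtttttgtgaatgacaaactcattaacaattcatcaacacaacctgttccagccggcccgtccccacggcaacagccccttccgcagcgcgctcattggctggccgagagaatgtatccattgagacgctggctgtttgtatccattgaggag
Spry1, chr2:122485097-122485346, plus strand: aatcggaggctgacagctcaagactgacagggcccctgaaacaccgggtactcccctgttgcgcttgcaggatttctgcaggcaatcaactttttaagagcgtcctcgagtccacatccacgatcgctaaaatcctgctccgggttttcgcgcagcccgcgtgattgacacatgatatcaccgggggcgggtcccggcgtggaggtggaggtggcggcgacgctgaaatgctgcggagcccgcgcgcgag
Dusp1, chr10:17184603-17184852, plus strand: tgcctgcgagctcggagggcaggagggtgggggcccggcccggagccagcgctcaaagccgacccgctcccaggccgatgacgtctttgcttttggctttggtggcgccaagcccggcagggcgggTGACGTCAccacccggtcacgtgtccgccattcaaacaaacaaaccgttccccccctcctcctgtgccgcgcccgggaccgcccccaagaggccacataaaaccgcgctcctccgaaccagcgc
Dusp5, chr1:262543524-262543773, plus strand: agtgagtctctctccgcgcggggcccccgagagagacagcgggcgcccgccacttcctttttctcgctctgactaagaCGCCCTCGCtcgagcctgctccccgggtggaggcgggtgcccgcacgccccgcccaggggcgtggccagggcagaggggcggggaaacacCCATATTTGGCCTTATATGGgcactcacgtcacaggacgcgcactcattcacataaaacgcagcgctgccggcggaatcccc

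In windows of 300 bases that also hold the first 50 bases of the transcript, Dusp10, Dusp6 and Spry1 held no match to any of these letters, and neither did Spred1 or Spred2. Dusp1 held a CRE 124 bases before the start, a motif found in 1.83% of the 33465 promoters searched. Dusp5 held 2 adjoining CArG boxes, which begin 82 and 72 bases before the start, a motif found in 1.64% of promoters, along with an EGR match and an ETS match (4.98% and 15.0% of promoters). Spry4 held an ETS match, 1 of 2 Spry2 promoters held an ETS and an EGR match, and the other held an EGR match. None of the 9 members searched held the AP-1 letters, which 7.33% of promoters hold, and Dusp4 was not searched. These matches describe letters in a window and say nothing of binding.

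Among the phosphatases that act on ERK, Dusp4 and Dusp6 were lower in both Lenti-AS samples and Dusp5 was not. Dusp6 encodes a cytoplasmic phosphatase with a strong preference for ERK, and its transcript is a widely used readout of ERK activity. It had 762 and 722 CPM in controls 1 and 2 against 591 and 633 CPM in Lenti-AS 1 and 2. The groups were 89.0 CPM apart at their nearest samples, while the controls differed by 39.1 CPM and the Lenti-AS replicates by 42.8 CPM. The control value was 742 ± 27.6 CPM and the Lenti-AS value 612 ± 30.3 CPM (SD, n = 2 each), a log2 fold change of -0.28 (standard error 0.06, 95% interval -0.43 to -0.13). In edgeR's quasi-likelihood test this gave an adjusted p = 0.0845. DESeq2 gave an adjusted p = 0.00175 for Dusp6, which was still not called, since the change lay under 1.3-fold.

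Dusp4, a nuclear phosphatase of ERK and other MAP kinases, had 143 and 131 CPM in controls 1 and 2 against 113 and 122 CPM in Lenti-AS 1 and 2. Both Lenti-AS values lay below both Lenti-GFP values, with 8.50 CPM between the nearest samples, less than the 12.1 CPM between the Lenti-GFP replicates. Its log2 fold change was -0.22 (standard error 0.07, edgeR quasi-likelihood adjusted p = 0.165). Dusp5 encodes a nuclear, ERK-specific phosphatase. It had 11.1 and 10.7 CPM in controls 1 and 2 against 10.4 and 14.5 CPM in Lenti-AS 1 and 2, so that Lenti-AS 1 was the lowest and Lenti-AS 2 the highest of the 4 samples. Its log2 fold change was 0.19 with a 95% interval from -0.22 to 0.59 (adjusted p = 0.541 from the same edgeR test). It was 0.40 without Lenti-AS 1 and -0.07 without Lenti-AS 2.

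The other pair of phosphatases act on p38 and JNK at least as much as on ERK. Dusp10, known as a phosphatase of JNK and p38 with little activity toward ERK, had 99.6 and 94.7 CPM in controls 1 and 2 against 141 and 134 CPM in Lenti-AS 1 and 2. The nearest samples of the groups were 34.4 CPM apart, while the controls differed by 4.97 CPM and the Lenti-AS replicates by 6.81 CPM. The group values were 97.1 ± 3.51 CPM and 137 ± 4.81 CPM (SD, n = 2 each), and the log2 fold change was 0.50 (standard error 0.06, edgeR quasi-likelihood adjusted p = 0.0264), which placed Dusp10 at rank 85 of 12446 by p-value. The 95% interval of the fold change ran from 1.28 to 1.57. The call was lost without Lenti-GFP 1 or Lenti-GFP 2 (edgeR adjusted p = 0.316 and 0.447), fits that each called 1 of all genes, while the log2 fold change of Dusp10 stayed between 0.46 and 0.54 in all 14 alternatives.

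Dusp1 encodes a nuclear phosphatase of p38, JNK and ERK and is an immediate early gene. It had 118 and 94.7 CPM in controls 1 and 2 against 109 and 133 CPM in Lenti-AS 1 and 2. The groups overlapped, and each pair of replicates differed by over 23 CPM. The log2 fold change was 0.18 with a 95% interval from -0.15 to 0.51 (adjusted p = 0.467 from the same edgeR test). It was 0.03 without Lenti-GFP 2 or without Lenti-AS 2, 0.35 without Lenti-GFP 1 and 0.31 without Lenti-AS 1, and Dusp1 was called in none of these fits.

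The 3 Sprouty genes had fitted changes of both signs, and none was called. Spry1, which encodes an inhibitor of Ras and ERK activation below growth factor receptors, had 17.9 and 15.1 CPM in controls 1 and 2 against 9.45 and 12.4 CPM in Lenti-AS 1 and 2, from 1667, 1435, 828 and 936 counts. Both Lenti-AS samples lay below both Lenti-GFP samples, and the nearest samples of the groups were 2.69 CPM apart, less than the 2.72 CPM between the controls and less than the difference between the Lenti-AS replicates. Relative to the control mean, the Spry1 level differed by -42.7% in the first and by -24.5% in the second Lenti-AS sample. The group values were 16.5 ± 1.92 CPM and 10.9 ± 2.12 CPM (SD, n = 2 each), the largest decrease among the members, with a log2 fold change of -0.59 (standard error 0.16, 95% interval -0.98 to -0.21). The adjusted p was 0.116 in edgeR's quasi-likelihood test, 0.0114 in DESeq2, 0.0468 in the likelihood ratio test and 0.110 in limma-voom. The log2 fold change of Spry1 was -0.41 without Lenti-AS 1, -0.80 without Lenti-AS 2, -0.465 without Lenti-GFP 1 and -0.71 without Lenti-GFP 2.

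Spry2, a Sprouty protein induced by and acting on several growth factor receptors, had 33.8 and 31.8 CPM in controls 1 and 2 against 41.5 and 37.6 CPM in Lenti-AS 1 and 2. It was higher in both Lenti-AS samples, with 3.82 CPM between the nearest samples and 3.88 CPM between the Lenti-AS replicates. The log2 fold change was 0.27 (standard error 0.08, edgeR quasi-likelihood adjusted p = 0.136), and DESeq2 gave an adjusted p = 0.0550. Spry4, a further feedback inhibitor of the same cascade, had 2.68 and 2.20 CPM in controls 1 and 2 against 5.02 and 2.67 CPM in Lenti-AS 1 and 2, from 250, 209, 440 and 201 counts. Only Lenti-AS 1 stood above the other samples, and the log2 fold change of 0.66 had a 95% interval from -0.12 to 1.44 (adjusted p = 0.284 from the same edgeR test). It was 0.13 without Lenti-AS 1 and 1.04 without Lenti-AS 2.

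Spred1 and Spred2 encode membrane-bound inhibitors of Ras, and Spred1 is known to bring the Ras GTPase-activating protein neurofibromin to the membrane. Spred1 had 17.3 and 18.3 CPM in controls 1 and 2 against 21.7 and 16.8 CPM in Lenti-AS 1 and 2. Spred2 had 2.57 and 2.34 CPM in controls 1 and 2 against 4.77 and 2.04 CPM in Lenti-AS 1 and 2, from 240, 222, 418 and 153 counts. For both genes Lenti-AS 1 was the highest and Lenti-AS 2 the lowest of the 4 samples. The log2 fold changes were 0.12 for Spred1 (95% interval -0.20 to 0.43) and 0.47 for Spred2 (95% interval -0.47 to 1.42), with adjusted p = 0.640 and 0.509 from edgeR's quasi-likelihood test. Without Lenti-AS 1 both changed sign, to -0.08 and -0.27, and without Lenti-AS 2 they were 0.29 and 0.96.

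**Figure D2:**
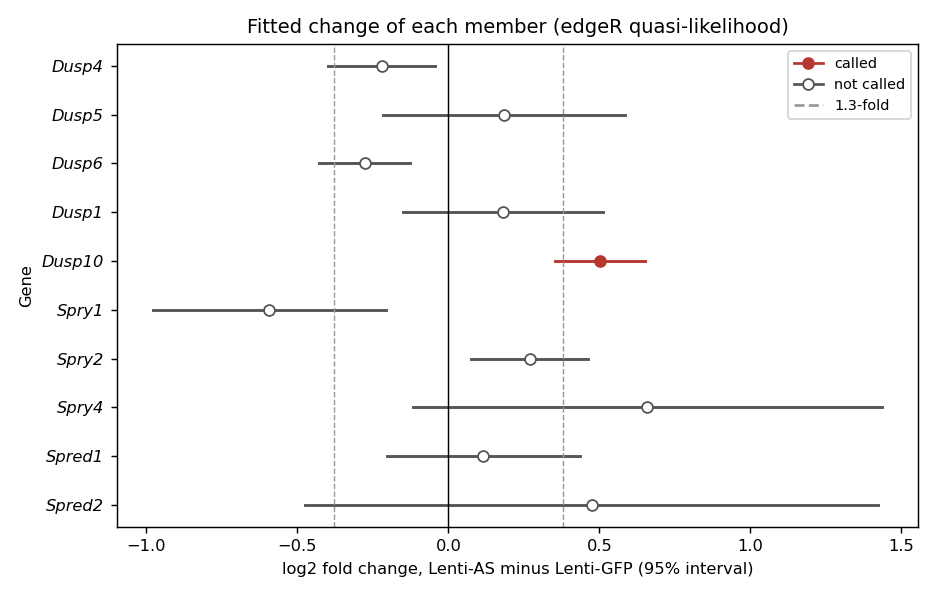
Fitted log2 fold change of each gene, Lenti-AS minus Lenti-GFP (x axis, log2), with its 95% interval from edgeR's quasi-likelihood fit and dashed lines at 1.3-fold. Dusp10 is the filled, called gene at 0.50, and the intervals of Dusp4, Dusp6 and Spry1 lie below 0, and that of Spry2 above 0, without a call.

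The spread between the Lenti-AS replicates was wide for some of these genes. The Lenti-AS samples differed by over 1.3-fold for 4 of the 10 genes (Dusp5, Spry1, Spry4 and Spred2), as did 19.4% of all genes tested, whereas the Lenti-GFP samples differed by that much for 0 of the 10 and 12.6% of all genes. The median absolute difference between the Lenti-AS samples was 0.33 on the log2 scale for the members and 0.14 for all genes tested, and between the Lenti-GFP samples 0.11 and 0.09. Spred2 was 2.34-fold and Spry4 1.88-fold higher in Lenti-AS 1 than in Lenti-AS 2. Dusp10 differed by 1.05-fold between the same samples. Of the 10 genes, 5 were highest in Lenti-AS 1 (28.8% of all genes tested), 2 in Lenti-AS 2 (26.7%) and 3 in Lenti-GFP 1 (19.1%). The latter 3, Dusp4, Dusp6 and Spry1, shared 1 order of samples, with Lenti-AS 1 lowest, then Lenti-AS 2, then control 2 and control 1 highest. The order was picked after the values of these genes had been seen. It was found for 6.16% of all genes tested, while 27.2% were lower without overlap in any order, as these 3 already were.

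**Figure D3:**
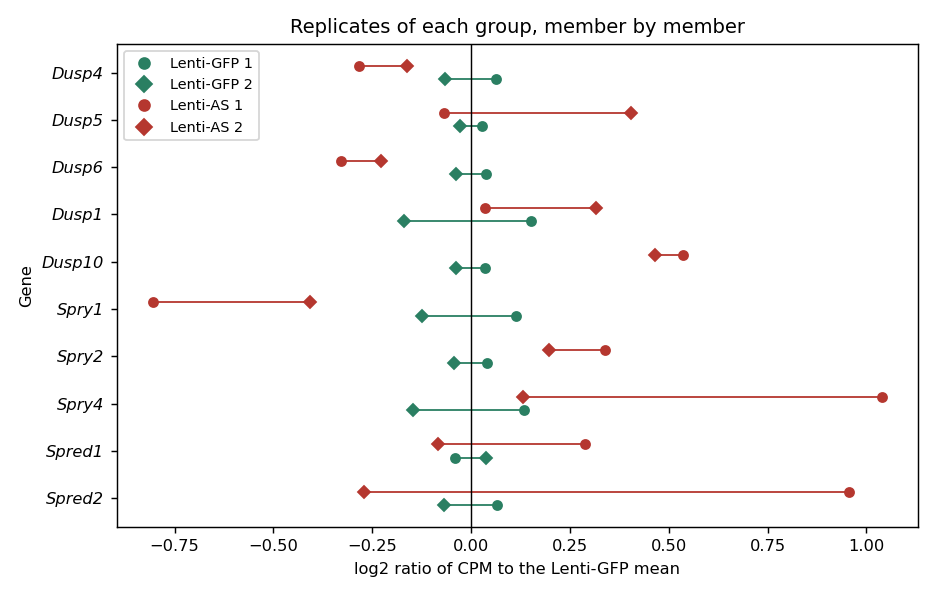
Log2 ratio of each sample's CPM to the Lenti-GFP mean (x axis), circles for replicate 1, diamonds for replicate 2, green for Lenti-GFP and red for Lenti-AS, with the replicates of a group joined by a line. The Lenti-AS samples lie close together for Dusp4, Dusp6, Dusp10 and Spry2 and far apart for Spry4 and Spred2, where Lenti-AS 1 is at 2.06 and 1.94 times the control mean and Lenti-AS 2 at 1.10 and 0.828 times.

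Ratios of counts between members within a sample do not depend on how libraries are scaled, although gene length keeps them from being ratios of molecules. The pairs were chosen after the values had been seen. Dusp10 had 0.131 times the counts of Dusp6 in both Lenti-GFP samples and 0.238 and 0.212 times in Lenti-AS 1 and 2. The ratio of Spry2 to Spry1 was 1.89 and 2.10 in Lenti-GFP and 4.39 and 3.02 in Lenti-AS. Both ratios were higher in the Lenti-AS samples, which follows from Dusp10 and Spry2 lying higher and Dusp6 and Spry1 lower in both, and adds no further result. Spry4 to Spry2 (0.0793 and 0.0693 in Lenti-GFP, 0.121 and 0.0712 in Lenti-AS) overlapped between the groups. So did Spred2 to Spred1 (0.148 and 0.128 in Lenti-GFP, 0.219 and 0.121 in Lenti-AS). The ratio of Dusp6 to Dusp4, the ERK phosphatases that were both lower, was 5.33 and 5.52 in Lenti-GFP and 5.25 and 5.18 in Lenti-AS.

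The 3 genes most like Dusp10, among all genes tested, in their pattern over the 4 samples were Rad51ap1, Ubash3b and Tbc1d24, with root mean square differences of 0.0123, 0.0194 and 0.0204 in centred log2 CPM. Their log2 fold changes of 0.49, 0.51 and 0.52 lie near that of Dusp10 because of how they were picked.

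Other genes of the pathway were compared in 6 lists, of which 5 held no called gene and 1 held a single called gene. Of all genes tested 1.98% were called. The lists were written with earlier results of these data known. None of the 5 other MAP kinase phosphatases was called by edgeR's quasi-likelihood test or by DESeq2. At an unadjusted p under 0.05 in edgeR's test there were 0, against 21.8% of all genes tested. The log2 fold changes of these phosphatases ran from -0.12 for Dusp2 to 0.20 for Dusp16. Dusp16, like Dusp10 a phosphatase of JNK and p38, had 5.49 and 5.20 CPM in controls 1 and 2 against 7.23 and 5.07 CPM in Lenti-AS 1 and 2, so the groups overlapped. Its log2 fold change was 0.44 without Lenti-AS 2 and -0.08 without Lenti-AS 1. Among 12 tested genes that restrain ERK at other points, 1 was called higher, against 1.31% of all genes tested. This was Rasa3, a Ras GTPase-activating protein. It had 130 and 124 CPM in controls 1 and 2 against 164 and 183 CPM in Lenti-AS 1 and 2, with no overlap (log2 fold change 0.45, standard error 0.07, edgeR quasi-likelihood adjusted p = 0.0432). This call was lost without Lenti-GFP 1 (log2 fold change 0.49) or Lenti-GFP 2 (0.42), and without Lenti-AS 2 (0.37), where the change lay under 1.3-fold. At an unadjusted p under 0.05 in edgeR's test, 3 of the 12 were higher and 1 lower, against 12.5% and 9.37% of all genes tested. DESeq2 called 2 of the 12 higher, Rasa3 and Dab2ip, against 4.86% of the genes to which it gave an adjusted p. Dab2ip had 15.4 and 12.8 CPM in controls 1 and 2 against 26.1 and 16.6 CPM in Lenti-AS 1 and 2. Its edgeR log2 fold change was 0.60, without a call. The median log2 fold change of the 12 was 0.21.

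The core of the cascade ran from the adaptor Grb2 through Ras, Raf and MEK to ERK and its RSK substrates. Of its 21 tested genes, 0 were called by edgeR's quasi-likelihood test and 0 by DESeq2. At an unadjusted p under 0.05 in edgeR's test, 2 were higher and 2 lower, against 12.5% and 9.37% of all genes tested. The median log2 fold change of the cascade genes was 0.02. Mapk3 had a log2 fold change of 0.47 without Lenti-AS 2 and 0.19 without Lenti-AS 1. Values ran from -0.23 for Rps6ka2, an RSK kinase, to 0.34 for Mapk3, which encodes ERK1 and had 165 and 198 CPM in controls 1 and 2 against 252 and 208 CPM in Lenti-AS 1 and 2. The list of p38 and JNK kinases, which Dusp10 and Dusp1 dephosphorylate, also took in the kinases that activate them. It further held the p38 substrates Mapkapk2 and Mapkapk3. Of 12 tested, 0 were called by edgeR's test and 0 by DESeq2. At an unadjusted p under 0.05 in edgeR's test, 1 was higher and 0 lower, against 12.5% and 9.37% of all genes tested. The log2 fold changes of the list ran from -0.48 for Mapk10, at 0.728 CPM or less in every sample, to 0.31 for Mapkapk3, with a median of -0.06. Mapkapk3 had a log2 fold change of 0.46 without Lenti-AS 1 and 0.14 without Lenti-AS 2.

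Genes that ERK induces had fitted changes of both signs, 12 above 0 and 7 below. Of 19 tested, 0 were called by edgeR's quasi-likelihood test. At an unadjusted p under 0.05, 3 were higher and 5 lower, against 12.5% and 9.37% of all genes tested. DESeq2 called 2 higher (Etv5 and Zfp36) and 2 lower (Hbegf and Ier3), against 4.86% and 1.39% of the genes to which it gave an adjusted p. Etv5 and Zfp36 had edgeR log2 fold changes of 0.42 and 0.65, and the groups overlapped for neither. The groups did not overlap for 14 of the 19, 7 in each direction, against 54.9% of all genes tested. The lowest was Hbegf, a growth factor of the EGF family, with 123 and 111 CPM in controls 1 and 2 against 75.6 and 89.9 CPM in Lenti-AS 1 and 2 (log2 fold change -0.50, edgeR adjusted p = 0.0715, DESeq2 adjusted p = 0.000124). The highest was Egr3, an immediate early transcription factor, at 18.0 and 12.4 CPM in controls 1 and 2 against 35.4 and 16.5 CPM in Lenti-AS 1 and 2, where the groups overlapped (log2 fold change 0.77). As for Spry4 and Spred2, the highest sample for Egr3 was Lenti-AS 1. The log2 fold change of Egr3 was 0.12 without that sample and 1.22 without Lenti-AS 2. The log2 fold change of Hbegf was -0.38 without Lenti-AS 1 and -0.63 without Lenti-AS 2, and that of Ier3 was -0.43 and -0.44. Ier3, an early response gene named after its values were seen, had an adjusted p = 0.0506 in edgeR's test, next to the threshold, at 118 and 105 CPM in controls 1 and 2 against 82.3 and 83.1 CPM in Lenti-AS 1 and 2.

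The 9 receptor tyrosine kinases held 0 called genes in edgeR's test and 0 by DESeq2, with a median log2 fold change of 0.18. At an unadjusted p under 0.05 in edgeR's test, 1 was higher and 0 lower, against 12.5% and 9.37% of all genes tested. The receptor for heregulin, Erbb3, had 477 and 448 CPM in controls 1 and 2 against 550 and 562 CPM in Lenti-AS 1 and 2 (log2 fold change 0.26, edgeR adjusted p = 0.0788). Its partner Erbb2 had the highest fitted change, 0.49, with 26.0 and 20.4 CPM in controls 1 and 2 against 39.8 and 25.3 CPM in Lenti-AS 1 and 2, and the groups overlapped. The log2 fold change of Erbb2 was 0.12 without Lenti-AS 1 and 0.78 without Lenti-AS 2. The lowest, Egfr, lay at 0.129 CPM or less in every sample.

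**Figure D4:**
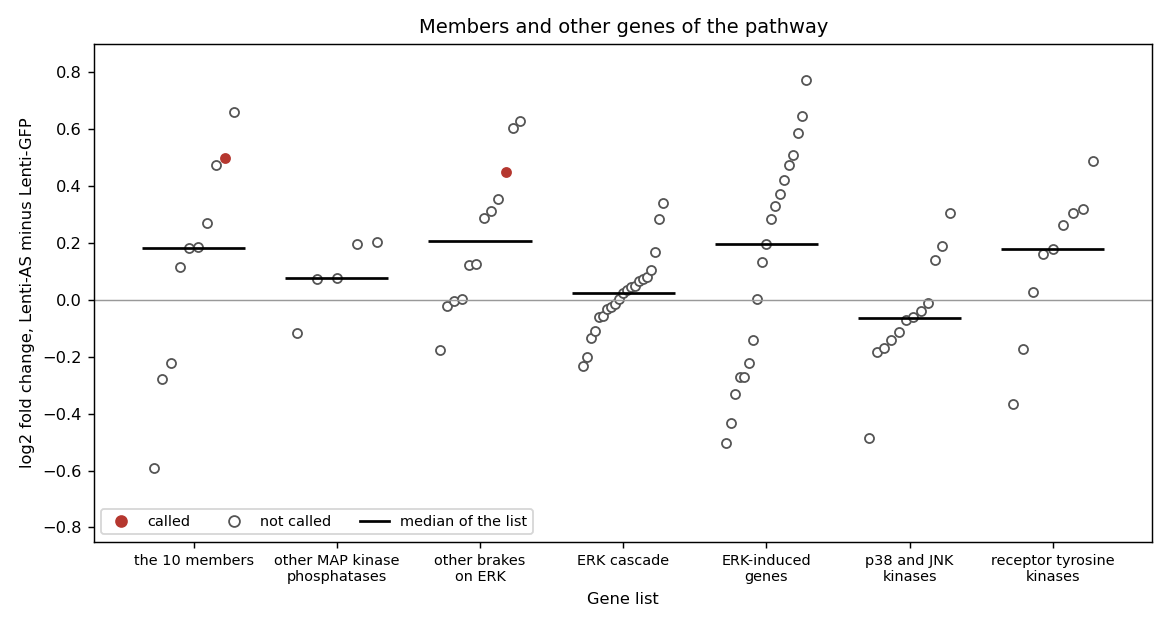
Log2 fold change, Lenti-AS minus Lenti-GFP, of each tested gene in the set of 10 and in the 6 pathway lists, with called genes filled and a line at each median. Dusp10 and Rasa3 are the called genes, and the medians lie between -0.06 and 0.21.

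**Figure D5:**
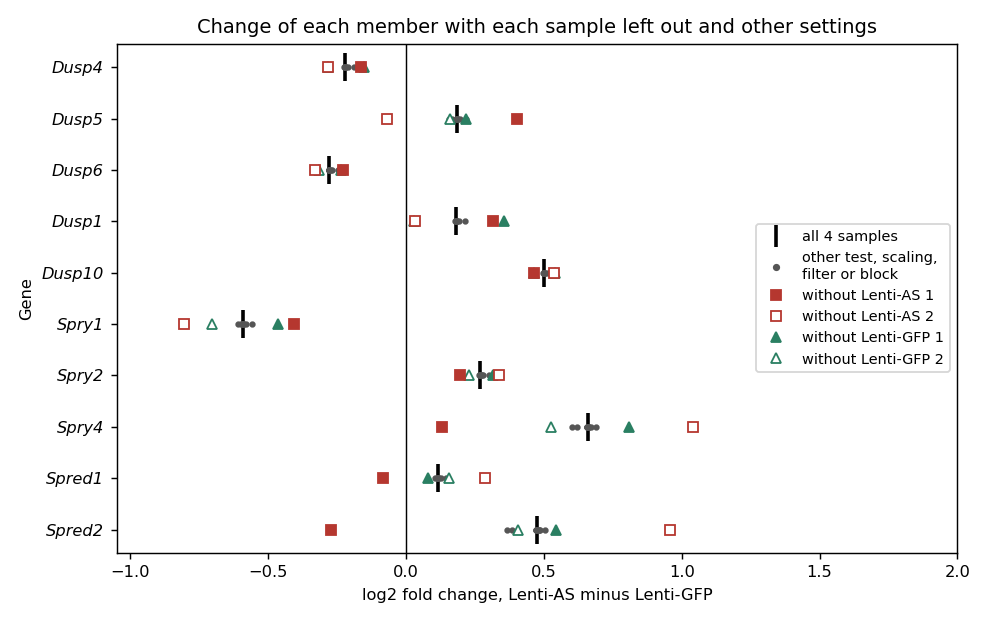
Log2 fold change of each of the 10 genes (x axis, Lenti-AS minus Lenti-GFP) with all samples, with each sample left out, and under the other tests, scalings, filters and the replicate block. Dusp10 stays between 0.46 and 0.54 and Spry1 between -0.80 and -0.41, while Dusp5, Spred1 and Spred2 cross 0 when a Lenti-AS sample is left out.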

How the data were processed

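RNA-seq of 4 samples of cultured rat SCs was used, 2 per virus, mapped by their labels and column names. Per the paper's methods the authors used hisat2 to place paired reads of 50 bp on rn6 and counted them per gene with featureCounts over RefSeq exons, whereas the submitters' processing notes name GSNAP with featureCounts. The settings for strand and for multiply matching reads are not given in the sources used here. The deposited values are raw counts per gene, without normalization. Of the 17949 genes, 1623 had 0 counts, and 1 row that repeats the header was dropped. No member has a copy among the 617 rows with a copy suffix.

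Testing was limited to the 12446 genes that reached 10 counts in 2 or more samples, with edgeR 4.0.16 (R 4.3.3), with TMM factors, glmQLFit defaults and glmQLFTest, without a replicate term, and Benjamini-Hochberg adjustment over all of them. The standard error is the log2 fold change divided by the square root of F. Alternatives were DESeq2 1.42.0, which gave no adjusted p for 2413 genes, limma-voom (limma 3.58.1), the likelihood ratio test, the newer quasi-likelihood fit, other scalings and filters, a replicate block and leaving out each sample. Replicates differed by more than sampling noise (chi-square per gene 32.7 for Lenti-GFP and 105 for Lenti-AS). Members and lists were chosen with earlier results of these data known. All members are named, together with the called genes of each list or, where there is none, its highest and lowest. Braf, Cbl and Lrig1 were not analysed here. Some SC markers are not reported here.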

Additional observations from a re-analysis of the deposited data

How the results depend on the processing

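Scaling by RLE, upper-quartile factors or library totals, the filters, limma-voom and the newer fit left the members' calls as they were, with Dusp10 called higher and 0 lower. Library totals moved the median of all genes to 0.039. DESeq2 and the likelihood ratio test called 1 member lower (Spry1) and 627 and 521 of all genes, against 246. In the list of other brakes on ERK DESeq2 called 2 genes, and among ERK-induced genes DESeq2 called 4 and the likelihood ratio test 2. RLE factors, the newer fit, no filter and the filter of 1 CPM in all samples each called 1 ERK-induced gene, Ier3. The replicate numbers share no stated culture, and the deviations of samples with 1 number were unrelated (r = -0.00727 over genes). The fit with a replicate block called 0 members and 0 other brakes, and 17 of all genes, with Dusp10 at a log2 fold change of 0.50 (adjusted p = 0.0741) and Rasa3 at 0.45 (adjusted p = 0.100). The cause was not tested.

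Leaving out 1 sample leaves an arm with a single library, assumed to vary like the other group. Such fits called 0 to 3 members higher, 0 to 1 lower and 1 to 1515 of all genes. Lists then held 0 to 2 called genes (other brakes, receptors), 0 to 8 (ERK-induced genes) and 0 to 1 (other phosphatases, cascade, p38 and JNK kinases). Without Lenti-AS 2 the members called were Dusp10, Spry4 and Spred2 higher and Spry1 lower, and without Lenti-AS 1 Dusp5 and Dusp10 higher and Spry1 lower. The members' median ranged from 0.0235 to 0.27. The log2 fold change ranged from -0.0688 to 0.40 for Dusp5, -0.0840 to 0.29 for Spred1, -0.27 to 0.96 for Spred2, -0.0765 to 0.44 for Dusp16 and -0.46 to 0.15 for Dusp2, changing sign.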
